A study of Mus musculus with 12 samples.

Results

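The histone genes of the deposited count table were described across the 4 groups of the study. They were chosen by symbol alone: rows beginning Hist1h, Hist2h, Hist3h or Hist4h were taken as clustered, replication-dependent genes, and rows beginning H2af, H3f3 or H1f as variant genes. This gave 82 of 23336 symbols, of which 68 were clustered and 14 variant. Hist3h2bb-ps, tested and counted with the clustered H2B genes, and H2afy3, an untested variant, are annotated as processed pseudogenes. The cells were B16, an established mouse melanoma line that had received Cas9 by transient transfection with Adar sgRNA 1 (labelled Adar KO) or Non-targeting sgRNA 5 (labelled Control), and had then been subcloned. The 4 groups were Adar KO cells with interferon-beta (IFNb) at 1000 U per mL, Adar KO cells with vehicle (PBS with 0.1% BSA), control cells with IFNb and control cells with vehicle, each for 36 h and each with 3 libraries. Adar encodes the deaminase that edits adenosines in double-stranded RNA, and IFNb is a type I interferon. Every cell had gone through Cas9 transfection and subcloning, and each genotype rests on 1 guide, so genotypes and subcloned populations cannot be told apart. The labels do not say whether the libraries of a group are separate cultures, so p-values measure the spread between these libraries only.

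Nucleosomes wrap DNA around the core histones H2A, H2B, H3 and H4, and the linker histone H1 binds where DNA enters and leaves. Most of this protein comes from genes that lie in clusters, are transcribed in S phase and give mRNAs that end in a conserved stem-loop, bound by SLBP, instead of a poly(A) tail. Variant genes lie alone, are transcribed outside S phase as well and mostly give polyadenylated mRNAs, and their products replace clustered histones at particular sites. The libraries were made from total RNA depleted of ribosomal RNA, so mRNAs without a poly(A) tail could be counted.

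The libraries held 5375649 to 7153480 counts. Histone genes took 0.368% to 0.399% of the counts in Adar KO cells with IFNb, 0.977% to 1.09% in Adar KO cells with vehicle, 0.728% to 0.755% in control cells with IFNb and 0.966% to 0.987% in control cells with vehicle. Adar itself was counted in every library, at 418, 422 and 383 CPM (counts per 1000000 counts after TMM scaling) in Adar KO cells with IFNb and 65.6, 56.3 and 56.7 CPM in Adar KO cells with vehicle, against 377, 384 and 392 CPM in control cells with IFNb and 74.3, 70.3 and 71.9 CPM in control cells with vehicle. A count over the whole gene does not test a small deletion made by Cas9. All 7 melanocyte markers were over 1 CPM; their summed level was 10430 to 11150 CPM in Adar KO cells with IFNb, 15250 to 15440 CPM in Adar KO cells with vehicle, 13360 to 13660 CPM in control cells with IFNb and 15640 to 16470 CPM in control cells with vehicle. The 6 leukocyte markers summed to at most 3.88 CPM in any library, with Cd3e at 0, and Epcam, Krt8 and Krt18 of the 4 epithelial markers were at 0. Of 5 fibroblast and 3 endothelial markers, the sums were at most 35.1 and 1.70 CPM. The ribosomal RNA precursor Rn45s held 25.8% to 28.5% of counts in Adar KO cells with IFNb, 21.1% to 22.9% in Adar KO cells with vehicle, 24.9% to 25.4% in control cells with IFNb and 21.5% to 22.5% in control cells with vehicle, and its part in the results was not tested.

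The feature that sets clustered histone mRNAs apart could be read from the reference transcripts. The histone stem-loop consensus of 16 bases was found in 46 of the 68 clustered genes and in 1 of the 14 variant genes. Of the 54 clustered genes whose GENCODE M21 model holds a 3′ UTR of any length, 46 had it. The variant gene that held it was H2afx, which encodes H2A.X, the histone phosphorylated around DNA breaks. Its mRNA is known to occur with and without a poly(A) tail. In the models, 822 bases follow the stem-loop of H2afx, and 770, 23 and 330 follow those of Hist1h4d, Hist1h2bb and Hist1h4i. A model that runs on past the stem-loop is thus not particular to H2afx. The stem-loops of H2afx and of 3 clustered genes described below are shown, in transcript sense on GRCm38, with the stem-loop in capitals and 5 bases on either side; H2afx lies on chromosome 9 and the others on chromosome 13.
H2afx: acaaaGGCCCTTTTAAGGGCCaccac
Hist1h4d: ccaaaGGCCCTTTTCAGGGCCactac
Hist1h2bb: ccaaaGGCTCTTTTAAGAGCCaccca
Hist1h4i: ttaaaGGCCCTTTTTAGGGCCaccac

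Summed over all members, a quantity that does not depend on how reads were divided among copies within the class, the clustered genes were lowest in Adar KO cells with IFNb. They summed to 2510, 2808 and 2736 CPM in Adar KO cells with IFNb and 8172, 8894 and 7668 CPM in Adar KO cells with vehicle, against 6494, 6154 and 6319 CPM in control cells with IFNb and 7560, 7607 and 7792 CPM in control cells with vehicle. The ratio of IFNb to vehicle means was 0.326 in Adar KO cells and 0.826 in control cells, and no library with IFNb overlapped the vehicle libraries of its genotype. The variant genes summed to 1277 ± 33.7 CPM in Adar KO cells with IFNb and 1806 ± 59.8 CPM in Adar KO cells with vehicle, against 1256 ± 34.2 CPM in control cells with IFNb and 1809 ± 31.3 CPM in control cells with vehicle (mean ± SD, n = 3), with ratios of 0.707 in Adar KO cells and 0.694 in control cells. These sums are descriptions without a test. In bulk RNA, fewer cells that make an mRNA and less of it per cell cannot be told apart.

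**Figure D1:**
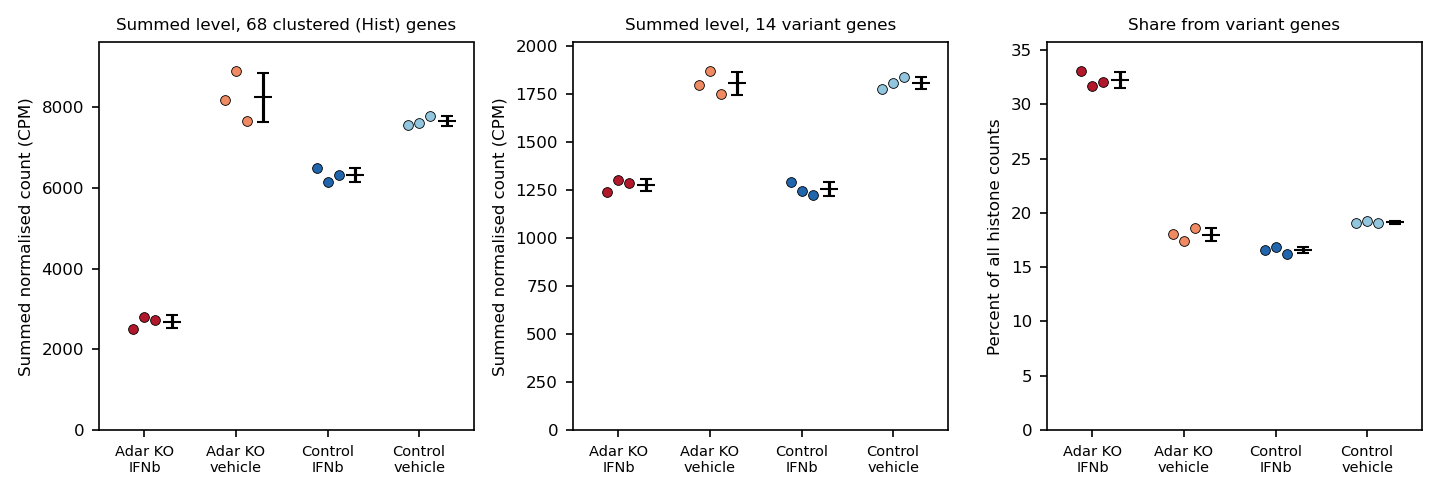
Summed normalised counts (CPM, linear axes from 0) of the 68 clustered genes and of the 14 variant genes, and the percent of all histone counts that came from variant genes, by group. Each point is a library, with the mean and SD of the group as a bar (n = 3); the clustered sum lies between 2510 and 2808 CPM in Adar KO cells with IFNb and at 6154 CPM or more in all other libraries.

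The composition of histone counts also differed in Adar KO cells with IFNb. Variant genes held 32.3 ± 0.706% of histone counts in Adar KO cells with IFNb and 18.0 ± 0.611% in Adar KO cells with vehicle, against 16.6 ± 0.302% in control cells with IFNb and 19.1 ± 0.102% in control cells with vehicle (SD, n = 3). Within H3, the H3.3 genes H3f3a and H3f3b held 67.9 ± 1.74% of counts in Adar KO cells with IFNb and 34.7 ± 1.83% in Adar KO cells with vehicle, against 31.5 ± 0.559% in control cells with IFNb and 37.2 ± 1.66% in control cells with vehicle. These are shares of counts, not per length. Within H1 the variant share was 37.7 ± 0.446% in Adar KO cells with IFNb and 24.2 ± 0.815% in Adar KO cells with vehicle, against 17.3 ± 0.315% in control cells with IFNb and 27.3 ± 1.10% in control cells with vehicle. Within H2A it moved less, at 47.0 ± 1.57% in Adar KO cells with IFNb and 43.0 ± 0.551% in Adar KO cells with vehicle, against 37.4 ± 0.536% and 42.4 ± 0.361% in control cells with IFNb and with vehicle.

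The response of Adar KO cells to IFNb asks how the cells labelled Adar KO change when type I interferon is added. Of 43 clustered genes that passed the filter on low counts, 37 fell, 4 rose and 2 were not called (edgeR quasi-likelihood test, Benjamini-Hochberg adjusted p under 0.05 over 11561 genes), and 33 of the falls and all 4 rises were at least 2-fold. Over the whole table, 72.3% of genes were called in this comparison, 36.6% higher and 35.7% lower, and 11.7% were lower and 9.33% higher by at least 2-fold. The median log2 fold change of the clustered genes was -1.78 beside 0.01 over all genes tested. The filter would have removed 4 of the 43 without the libraries of 1 group with IFNb (Hist1h2aa and Hist1h2ba without Adar KO, Hist1h3b without control, Hist2h3c1 without either), so a difference was built into their selection; without these 4, 37 of 39 fell and 2 rose, with a median of -1.97. The 3 libraries with IFNb lay wholly below the 3 with vehicle for 36 clustered genes and wholly above for 5, where 36.2% and 37.5% of all genes did so. The other 25 clustered genes had too few counts to be tested, so these counts do not speak for all 68.

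By histone type, the sum of clustered H2B genes was 5.69-fold lower with IFNb than with vehicle in Adar KO cells, at 352 ± 17.5 CPM with IFNb and 2005 ± 131 CPM with vehicle (SD, n = 3). The sum of clustered H2A genes was 4.49-fold lower, at 221 ± 14.8 CPM with IFNb and 994 ± 78.4 CPM with vehicle, and that of clustered H3 genes 3.41-fold lower, at 290 ± 21.6 CPM with IFNb and 989 ± 76.2 CPM with vehicle. Clustered H4 genes were 2.47-fold lower, at 1046 ± 53.7 CPM with IFNb and 2589 ± 220 CPM with vehicle. Clustered H1 genes were 2.15-fold lower, at 775 ± 55.2 CPM with IFNb and 1667 ± 115 CPM with vehicle. The order H2B, H2A, H3, H4, H1 is one of sums and was not tested. The falls were not limited to the largest cluster: the sums of the Hist1 genes on chromosome 13, the Hist2 genes on chromosome 3 and the Hist3 genes on chromosome 11 were 3.11-, 3.23- and 3.33-fold lower, whereas Hist4h4, the lone gene of its name, was 1.39-fold lower.

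Among the linker histone genes, the more strongly counted ones fell by unlike amounts. Hist1h1e had 229, 258 and 264 CPM in Adar KO cells with IFNb, against 711, 778 and 668 CPM in Adar KO cells with vehicle (log2 fold change -1.52 ± 0.05 SE, adjusted p = 5.6e-39). Hist1h1d had 74.4, 77.0 and 75.5 CPM with IFNb, against 310, 339 and 287 CPM with vehicle (-2.05 ± 0.06, adjusted p = 1.07e-62). Hist1h1c had 391, 449 and 454 CPM with IFNb, against 607, 658 and 594 CPM with vehicle, a smaller fall (-0.52 ± 0.04, adjusted p = 9.26e-20). In none of these 3 genes did the IFNb libraries overlap the vehicle libraries. All 3 encode replication-dependent linker histones, and in human cells the counterpart of Hist1h1c is known to give polyadenylated mRNA as well.

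Of the 10 tested clustered H2A genes 9 fell and of the 11 tested H2B genes 10 fell, where 35.7% of all genes fell. Hist1h2af (GRCm38 chromosome 13, 23533906 to 23534304, plus strand) had the largest fall, with 1.14, 1.20 and 1.74 CPM in Adar KO cells with IFNb, against 82.9, 83.1 and 73.6 CPM in Adar KO cells with vehicle. Its means differed 58.8-fold (log2 fold change -5.85 ± 0.29, adjusted p = 5.58e-66), although 94.2% of the 37-base stretches in its transcript model also occur in other genes, so its own reads are uncertain. Hist1h2ah had 1.52, 2.86 and 2.37 CPM with IFNb, against 33.6, 39.4 and 37.6 CPM with vehicle (-3.99 ± 0.23, adjusted p = 4.41e-45), with 92.4% of its stretches shared. Both groups of libraries stood far apart in these genes. Hist3h2a, on chromosome 11, had 87.1, 96.8 and 87.3 CPM with IFNb, against 286, 323 and 274 CPM with vehicle (-1.70 ± 0.05, adjusted p = 5.02e-53), and its model overlaps that of Trim17 on the same strand.

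The H2B genes gave the same picture at higher counts. Hist1h2bb had 46.4, 56.8 and 50.5 CPM in Adar KO cells with IFNb, against 353, 375 and 333 CPM in Adar KO cells with vehicle (log2 fold change -2.78 ± 0.06, adjusted p = 3.97e-73). Hist2h2bb had 117, 126 and 122 CPM with IFNb, against 790, 835 and 717 CPM with vehicle (-2.68 ± 0.05, adjusted p = 2.9e-77); all of its 37-base stretches also lie in Gm20628 on the other strand, so with the strand setting of the counting not given the reads of the 2 genes cannot be told apart. Hist1h2bk, with 75.0% of its stretches shared, had 6.44, 10.8 and 10.3 CPM with IFNb, against 99.0, 109 and 92.3 CPM with vehicle (-3.42 ± 0.12, adjusted p = 4.1e-59). Hist1h2bh had 17.4, 15.3 and 14.6 CPM with IFNb, against 132, 132 and 114 CPM with vehicle (-3.01 ± 0.10, adjusted p = 9.31e-51). The groups did not overlap in any of these 4 genes.

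For the core histone H3, 6 of 8 tested clustered genes fell and the 2 others were not called, where 35.7% of all genes fell. Hist1h3g had 2.65, 4.06 and 3.64 CPM in Adar KO cells with IFNb, against 63.7, 65.2 and 60.3 CPM in Adar KO cells with vehicle (log2 fold change -4.16 ± 0.19, adjusted p = 4.49e-57). Hist1h3a had 19.1, 26.2 and 25.5 CPM with IFNb, against 83.1, 86.7 and 74.9 CPM with vehicle (-1.78 ± 0.09, adjusted p = 3.01e-39). For H4, 8 of 9 tested genes fell. Hist1h4a had 27.8, 28.4 and 27.2 CPM with IFNb, against 240, 249 and 216 CPM with vehicle (-3.08 ± 0.07, adjusted p = 1.08e-74). Hist1h4d, whose stem-loop is shown above, had 275, 294 and 291 CPM with IFNb, against 720, 772 and 659 CPM with vehicle (-1.32 ± 0.04, adjusted p = 9.27e-52). The 3 libraries with IFNb lay below those with vehicle in all 4 of these genes, and also in Hist1h4c (-1.37 ± 0.05), Hist1h4h (-1.46 ± 0.07), Hist1h4b (-1.20 ± 0.06) and Hist2h4 (-0.76 ± 0.06), which fell as well.

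**Figure D2:**
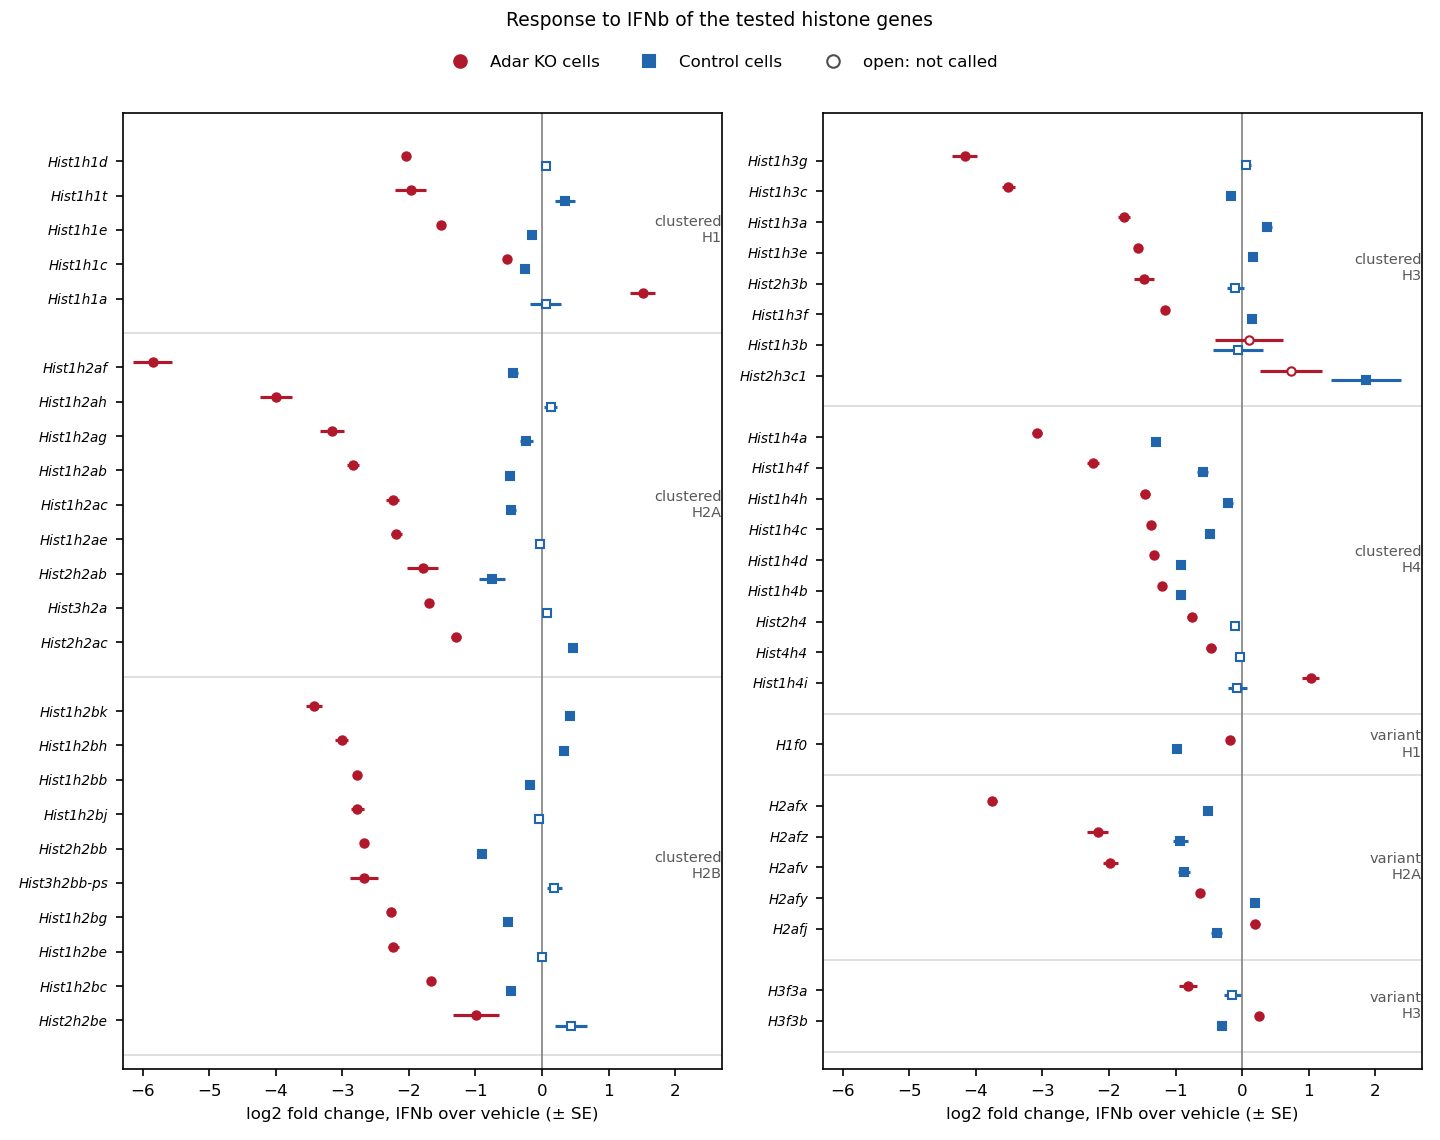
Log2 fold changes of IFNb over vehicle (± SE) for the tested histone genes in Adar KO cells (red circles) and control cells (blue squares), grouped by class and histone type and ordered by the value in Adar KO cells; open symbols were not called. Hist1h2aa and Hist1h2ba, with 3 counts or fewer in each of 3 groups, are left out. Most clustered genes lie left of 0 in Adar KO cells and nearer 0, on either side, in control cells. Hist1h1a and Hist1h4i lie to the right in Adar KO cells.

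The 4 clustered genes that rose in Adar KO cells with IFNb were Hist1h2aa, Hist1h2ba, Hist1h1a and Hist1h4i. Hist1h2aa and Hist1h2ba encode the H2A and H2B of the testis, known as TH2A and TH2B. Hist1h1t, the gene of the testis linker histone H1t, fell instead. Its mean in Adar KO cells with IFNb was 3.96-fold lower than with vehicle and 5.07-fold lower than in control cells with IFNb. Hist1h2aa had 29, 43 and 30 counts in Adar KO cells with IFNb, which is 5.49, 6.46 and 4.75 CPM, against 0 counts in every library of the other 3 groups. Against a floor of 3 counts over a group (0.161 CPM in Adar KO cells with vehicle and 0.157 CPM in control cells with IFNb) its level was higher by at least 34.8-fold than with vehicle in Adar KO cells, and by at least 35.5-fold than with IFNb in control cells. It passed the filter only through Adar KO cells with IFNb, so no p is given. Hist1h2ba had 139 counts over the 3 libraries in Adar KO cells with IFNb and 2 in Adar KO cells with vehicle, against 3 in control cells with IFNb and 2 in control cells with vehicle. Its ratio to Adar KO cells with vehicle was 71.2 (exact 95% interval 19.3 to 593) and to control cells with IFNb 48.4 (16.2 to 238), and it too passed the filter only through Adar KO cells with IFNb. Floors and these intervals cover counting error only.

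Hist1h2aa and Hist1h2ba lie back to back on chromosome 13 with starts 281 bases apart, Hist1h2aa on the plus and Hist1h2ba on the minus strand. Neither model in GENCODE M21 holds a 3′ UTR, so the stem-loop could not be looked for. Since the same stretch serves both genes, the RefSeq window of Hist1h2aa (GRCm38.p6, plus strand, chr13:23934187-23934486, from 250 bases before the start to 50 after) is shown with the CCAAT box, the TATA box TATAAA and the octamer ATTTGCAT of either strand in capitals. The window of Hist1h2af, the gene with the largest fall (chr13:23533625-23533924, plus strand), is shown for comparison.
Hist1h2aa: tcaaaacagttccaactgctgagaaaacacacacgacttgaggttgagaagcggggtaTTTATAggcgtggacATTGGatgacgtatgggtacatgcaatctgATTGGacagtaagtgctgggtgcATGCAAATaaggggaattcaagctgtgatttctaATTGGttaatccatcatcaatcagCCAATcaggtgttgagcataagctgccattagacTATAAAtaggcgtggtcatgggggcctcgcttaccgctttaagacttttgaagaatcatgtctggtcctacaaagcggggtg
Hist1h2af: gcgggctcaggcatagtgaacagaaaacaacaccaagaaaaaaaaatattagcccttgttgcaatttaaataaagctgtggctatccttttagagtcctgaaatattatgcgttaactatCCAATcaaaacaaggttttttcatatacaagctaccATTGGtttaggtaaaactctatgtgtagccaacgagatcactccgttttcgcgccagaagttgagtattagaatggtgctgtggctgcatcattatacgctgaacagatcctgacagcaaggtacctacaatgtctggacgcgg

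Hist1h1a, which encodes the linker histone H1.1, shares none of its 37-base stretches with another gene. It had 14.2, 15.5 and 14.2 CPM in Adar KO cells with IFNb, against 4.45, 5.80 and 4.99 CPM in Adar KO cells with vehicle (log2 fold change 1.51 ± 0.19, adjusted p = 5.18e-13). Hist1h4i, an H4 gene whose stem-loop is shown above, had 24.6, 24.2 and 29.1 CPM with IFNb, against 9.77, 15.7 and 12.1 CPM with vehicle (1.03 ± 0.13, adjusted p = 4.49e-12). The groups did not overlap in either gene. In control cells neither gene was called, at 4.27, 5.72 and 4.65 CPM with IFNb against 3.69, 4.78 and 5.78 CPM with vehicle for Hist1h1a and 11.9, 14.4 and 14.9 CPM with IFNb against 13.5, 14.8 and 15.3 CPM with vehicle for Hist1h4i. Among the untested genes, Hist1h3d and Hist3h2ba, named after their values were seen, had totals of 37 and 19 counts in Adar KO cells with IFNb and 2 and 1 in Adar KO cells with vehicle, against 17 and 3 in control cells with IFNb and 2 and 0 in control cells with vehicle.

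**Figure D3:**
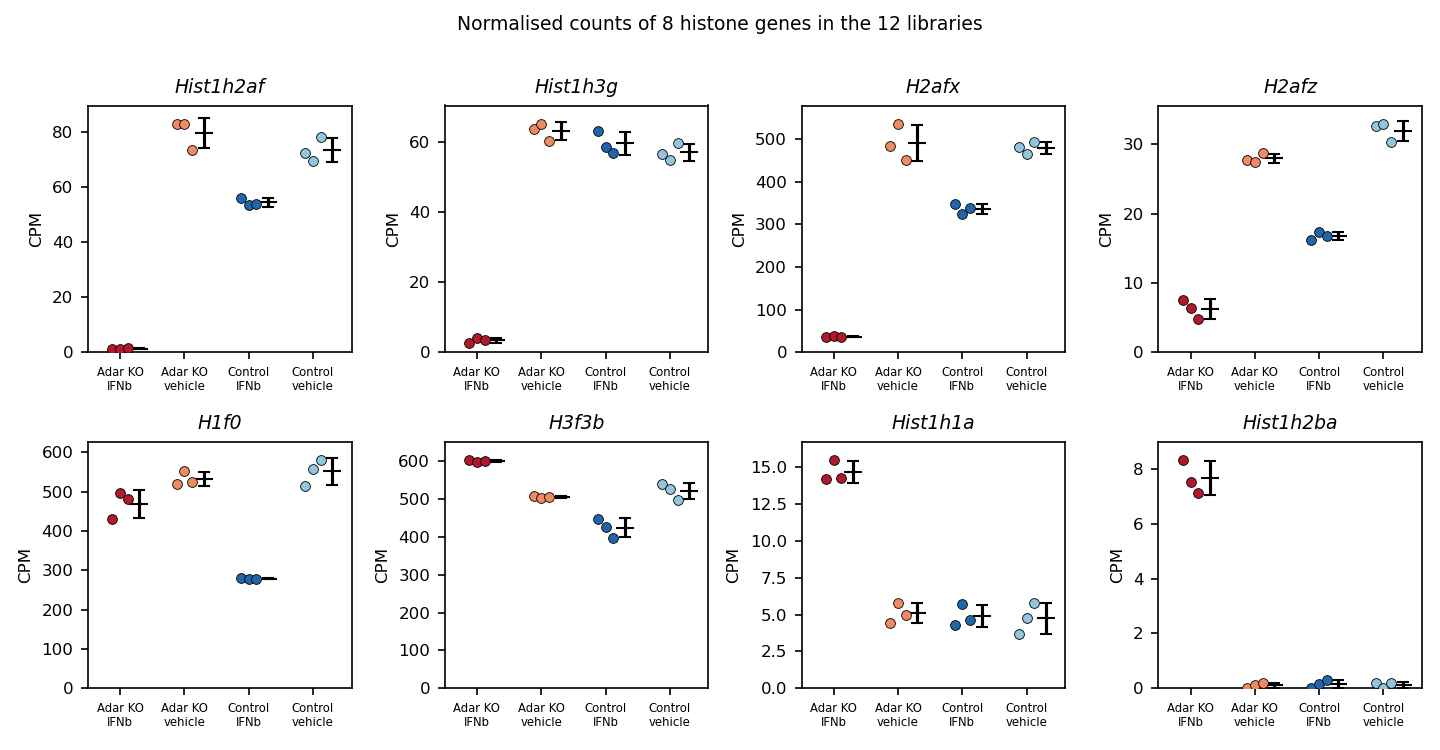
Normalised counts (CPM, linear axes from 0) of Hist1h2af, Hist1h3g, H2afx, H2afz, H1f0, H3f3b, Hist1h1a and Hist1h2ba in the 12 libraries; each point is a library, with the group mean and SD as a bar (n = 3). H2afx lies near 36.5 CPM in Adar KO cells with IFNb and above 320 CPM in the other groups, while H3f3b, Hist1h1a and Hist1h2ba are highest in Adar KO cells with IFNb.

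The variant genes did not move as a block. Of 14, 8 passed the filter, and in Adar KO cells 6 of them fell and 2 rose with IFNb, with a median log2 fold change of -0.72. Over all genes tested, 35.7% fell and 36.6% rose in this comparison. H2afx fell most, with 35.8, 37.3 and 36.4 CPM in Adar KO cells with IFNb against 485, 536 and 452 CPM in Adar KO cells with vehicle, a 13.5-fold difference of means (log2 fold change -3.75 ± 0.06, adjusted p = 7.51e-86). The genes of H2A.Z, a variant found at promoters, fell as well: H2afz had 7.58, 6.46 and 4.75 CPM with IFNb against 27.8, 27.5 and 28.7 CPM with vehicle (-2.17 ± 0.16, adjusted p = 2.97e-28). H2afv had 14.2, 13.2 and 18.0 CPM with IFNb against 59.4, 62.5 and 57.4 CPM with vehicle (-1.98 ± 0.11, adjusted p = 1.73e-37). Without H2afx, the summed variant level was 1240 ± 33.0 CPM with IFNb and 1315 ± 17.4 CPM with vehicle in Adar KO cells, a ratio of 0.943, so most of the difference in the sum came from this gene.

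The H3.3 genes went opposite ways in Adar KO cells, although they encode the same protein. H3f3b had 604, 598 and 600 CPM in Adar KO cells with IFNb, against 508, 502 and 506 CPM in Adar KO cells with vehicle (log2 fold change 0.25 ± 0.04, adjusted p = 2.85e-08). H3f3a, with far fewer counts, had 10.8, 12.3 and 9.49 CPM with IFNb, against 18.3, 19.9 and 19.1 CPM with vehicle (-0.81 ± 0.14, adjusted p = 7.5e-08), and antisense gene models overlap it. The IFNb libraries lay wholly above those with vehicle for H3f3b and wholly below for H3f3a.

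Of the other 3 variants, 2 fell and 1 rose. H2afy encodes macroH2A1, a variant with a large extra domain, and had 75.8, 74.3 and 69.0 CPM with IFNb against 118, 113 and 107 CPM with vehicle (-0.63 ± 0.06, adjusted p = 9.6e-18). H1f0 encodes H1.0, the linker histone that accumulates in cells that have stopped dividing, and had 430, 497 and 482 CPM in Adar KO cells with IFNb against 520, 552 and 525 CPM in Adar KO cells with vehicle (-0.18 ± 0.04, adjusted p = 0.000103). H2afj, which encodes H2A.J, had 59.1, 63.4 and 68.5 CPM with IFNb against 59.6, 55.9 and 52.2 CPM with vehicle. Its groups overlapped, and its rise (0.19 ± 0.07, adjusted p = 0.0164) was not called without replicate 3 of Adar KO cells with IFNb (adjusted p = 0.184) or of Adar KO cells with vehicle (0.0989), with library size alone (0.222) or by DESeq2 (0.0585), within a range of 0.00869 to 0.222 over 13 alternatives. The 6 untested variants had 0 to 85 counts over the 12 libraries.

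In control cells, the clustered genes moved less with IFNb than in Adar KO cells, with more falls than rises. The ratio of their summed means, IFNb to vehicle, was 0.826. Of 43 tested genes, 18 fell, 8 rose and 17 were not called, where 26.5% of all genes were called lower and 26.5% higher (53.0% in all). The median log2 fold change was -0.06, beside 0.00 over all genes. Of the 43, 1 gene fell and 1 rose by at least 2-fold (2.77% and 4.21% of all genes). Without the 4 genes named above, which include the gene with the 2-fold rise, 18 of 39 fell and 7 rose, with a median of -0.10. With library size alone the calls over all genes split into 2469 higher and 3796 lower, against 3067 and 3066 with TMM scaling. By type, 4 of 8 H3 genes rose and 1 fell, whereas 6 of 9 H4 genes fell and 3 were not called. Of 10 H2A genes 5 fell and 1 rose, and of 11 H2B genes 4 fell and 2 rose. Of 5 H1 genes 2 fell and 1 rose. Among the H2B genes, the mean of Hist2h2bb was 1.86-fold lower with IFNb than with vehicle. Among the H4 genes, the fall of Hist1h4h (-0.21 ± 0.07) was not called by DESeq2 (adjusted p = 0.0581), without replicate 2 of control cells with IFNb (0.0526) or without replicate 3 of control cells with vehicle (0.0648), within 1.45e-05 to 0.0648 over 13 alternatives. Hist2h4 (adjusted p = 0.157) was called lower with library size alone (0.00515), without replicate 3 of control cells with IFNb (0.0433) and without replicate 1 of control cells with vehicle (0.0237), within 0.00515 to 0.439 over 13 alternatives. Hist1h4a, the gene with the 2-fold fall, had 80.5, 81.2 and 91.1 CPM in control cells with IFNb against 209, 200 and 211 CPM in control cells with vehicle (-1.29 ± 0.05, adjusted p = 6.73e-45). Hist1h4d had 355, 338 and 354 CPM with IFNb against 645, 685 and 655 CPM with vehicle (-0.92 ± 0.04, adjusted p = 2.84e-38), and Hist1h4b differed by a like amount (-0.92 ± 0.05).

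Clustered genes that rose in control cells included Hist2h2ac, with 110, 114 and 112 CPM with IFNb against 80.8, 77.0 and 88.1 CPM with vehicle (log2 fold change 0.46 ± 0.06, adjusted p = 1.16e-10). Hist1h2bk had 131, 127 and 121 CPM with IFNb against 93.8, 96.8 and 93.0 CPM with vehicle (0.42 ± 0.06, adjusted p = 1.88e-09), and Hist1h3a (0.37 ± 0.07) and Hist1h2bh (0.33 ± 0.06) rose too. These 4 genes fell in Adar KO cells. In all, 7 clustered genes fell in Adar KO cells and rose in control cells, 18 fell in both, 12 fell in Adar KO cells and were not called in control cells, where 6.44%, 14.5% and 14.8% of all genes showed these patterns. The 4 that rose in Adar KO cells were not called in control cells, a pattern shown by 15.8% of all genes. Of these 4, Hist1h2aa had 0 counts in the control groups and Hist1h2ba had 3 or fewer in each. For these genes a call in control cells was all but excluded in advance. Hist2h3c1, the gene with the 2-fold rise, had 2.85, 2.72 and 1.55 CPM with IFNb against 0.703, 0.660 and 0.542 CPM with vehicle in control cells (1.86 ± 0.53), passed the filter only through the groups with IFNb, and all of its 37-base stretches lie also in Gm20634.

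Of the 8 tested variants, 6 fell, 1 rose and 1 was not called in control cells, with a median of -0.45. Over all genes tested, 26.5% fell and 26.5% rose there. H1f0 had 280, 278 and 278 CPM in control cells with IFNb against 515, 558 and 581 CPM in control cells with vehicle (log2 fold change -0.99 ± 0.04, adjusted p = 7.73e-38). H2afz (-0.93 ± 0.11), H2afv (-0.87 ± 0.09), H2afx (-0.51 ± 0.04), H2afj (-0.39 ± 0.08) and H3f3b (-0.30 ± 0.04) also fell. H2afy rose, with 113, 108 and 109 CPM with IFNb against 90.1, 94.2 and 103 CPM with vehicle (0.20 ± 0.06, adjusted p = 0.00212), a call lost with library size alone (0.0704, within 0.000461 to 0.0704 over 13 alternatives). H3f3a was not called (-0.15 ± 0.12).

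With IFNb present, Adar KO cells were compared with control cells, and 37 of 43 clustered genes were lower, 4 higher and 2 not called, where 72.6% of all genes were called, 36.4% higher and 36.2% lower. The median log2 fold change was -1.65, beside 0.02 over all genes; without the 4 genes named above, 37 of 39 were lower and 2 higher, with a median of -1.78. Of the 8 variants 5 were lower and 3 higher (median -0.63). H2afx had 35.8, 37.3 and 36.4 CPM in Adar KO cells with IFNb against 347, 325 and 338 CPM in control cells with IFNb (-3.20 ± 0.06, adjusted p = 1.01e-77). H1f0, at 430, 497 and 482 CPM in Adar KO cells with IFNb against 280, 278 and 278 CPM in control cells with IFNb, was the variant with the largest difference upwards (0.75 ± 0.04, adjusted p = 1.37e-29), followed by H2afj (0.55 ± 0.08) and H3f3b (0.50 ± 0.04). Among the H4 genes the differences were small in Hist1h4b (-0.18 ± 0.06) and Hist1h4d (-0.28 ± 0.04), both of which fell with IFNb in control cells as well; the call of Hist1h4b was lost without replicate 1 of control cells with IFNb (adjusted p = 0.0526, within 0.00141 to 0.0526 over 13 alternatives).

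With vehicle, the genotypes differed little: 4 of 43 clustered genes were higher in Adar KO cells and 39 were not called, where 6.51% of all genes were called, 2.47% higher and 4.05% lower. The count of lower clustered genes was 0 by edgeR and by DESeq2, and at an unadjusted p under 0.05 it was 1 (Hist1h3b). The 4 were Hist1h1e, with 711, 778 and 668 CPM in Adar KO cells with vehicle against 593, 595 and 633 CPM in control cells with vehicle (log2 fold change 0.25 ± 0.04, adjusted p = 7.22e-05), Hist1h1d (0.19 ± 0.05), Hist1h4a (0.19 ± 0.05) and Hist1h4c (0.18 ± 0.05). The count moved with the libraries used. It was 1 without replicate 2 of Adar KO cells with vehicle or without replicate 2 of control cells with vehicle, and 12 without replicate 3 of Adar KO cells with vehicle. Hist1h1d, Hist1h4a and Hist1h4c were not called without replicate 2 of either group, at adjusted p values up to 0.193, 0.103 and 0.247, and Hist1h4a was not called by DESeq2 (adjusted p = 0.0564). H2afy was the variant called, with 118, 113 and 107 CPM in Adar KO cells with vehicle against 90.1, 94.2 and 103 CPM in control cells with vehicle (0.24 ± 0.06, adjusted p = 0.00353), and this call was lost without replicate 1 of Adar KO cells with vehicle (0.0586) or of control cells with vehicle (0.0519), within 0.000937 to 0.0586 over 13 alternatives.

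The interaction tests whether the response to IFNb differed between Adar KO and control cells. It was called lower, that is a response more negative or less positive in Adar KO cells, for 37 of 43 clustered genes, and higher for 3, where 59.3% of all genes were called, 28.6% higher and 30.7% lower. For variants it was lower in 5 and higher in 3 of 8. The largest differences among variants were H2afx (-3.24 ± 0.08, adjusted p = 2.12e-67), H2afz (-1.24 ± 0.19), H2afv (-1.11 ± 0.14) and H2afy (-0.83 ± 0.08) on the lower side and H1f0 (0.80 ± 0.06, adjusted p = 8.25e-22), H2afj (0.58 ± 0.11) and H3f3b (0.55 ± 0.06) on the higher side. Among H4 genes the interaction was -0.28 ± 0.08 for Hist1h4b and -0.40 ± 0.06 for Hist1h4d, against -1.79 ± 0.09 for Hist1h4a. The 3 on the higher side were Hist1h1a, Hist1h4i and Hist1h2ba; for Hist1h2ba, which passed the filter only through Adar KO cells with IFNb, the call was lost without replicate 1 or replicate 3 of control cells with vehicle. The interaction of Hist1h2aa had no usable value, since 3 of the 4 groups were at 0.

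Many clustered genes are near-identical copies, which bears on the values of single genes. Of the 37-base stretches (the read length) in a tested clustered gene's transcripts, a median of 46.6% also occurred in another gene (range 0 to 100%), against 87.1% in the untested clustered genes and 9.25% in the tested variants. The most shared tested variants were H2afz (39.8%) and H3f3a (28.9%), whose own reads are therefore less certain. Among the 24 tested clustered genes with under 50% of stretches shared, 20 fell and 4 rose with IFNb in Adar KO cells, Hist1h2aa and Hist1h2ba among the 4. Among the 19 with 50% or more shared, 17 fell and 2 were not called. The genes with a stem-loop in the model (32 tested) had a median log2 fold change of -1.88, with 29 falls and 1 rise. The 6 with a 3′ UTR but no stem-loop found had a median of -1.57, with 5 falls and 1 rise. Among these 6, the models of Hist1h2af (399 bases) and Hist1h2ah (405 bases) are little longer than that of Hist1h2ai (393 bases), which has no 3′ UTR. They leave little or no room for the motif, so Hist1h2af and Hist1h2ah cannot be taken as genes without a stem-loop. The longest models of Hist2h3b, Hist1h1a, Hist1h2bc and Hist2h2be have 488, 741, 1156 and 2620 bases, without a match. The search covered the modelled transcripts only. Over all genes tested, 35.7% fell and 36.6% rose.

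The counts of the Hist1 genes were uneven along chromosome 13. The first block of Hist1 genes (chr13:21715763-21837530, 121.8 kb) holds 18 members, none of which was tested: 9 were at 0 in all 12 libraries, and all 18 together had 54 counts. Most of these genes share much of their sequence (median 87.9%), but 3 share under 50%, among them Hist1h1b, the gene of linker histone H1.5, which shares 1.6% and had 0 counts. The second block (chr13:22035164-22043676) had 5 members with 17460 counts, and the third (chr13:23531050-23764406) had 29 members with 335776 counts, of which 26 were tested. The last block is Hist1h2aa with Hist1h2ba, at 248 counts. Why the first block was nearly without counts was not tested, and the absence of counts there is not evidence of absent mRNA.

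**Figure D4:**
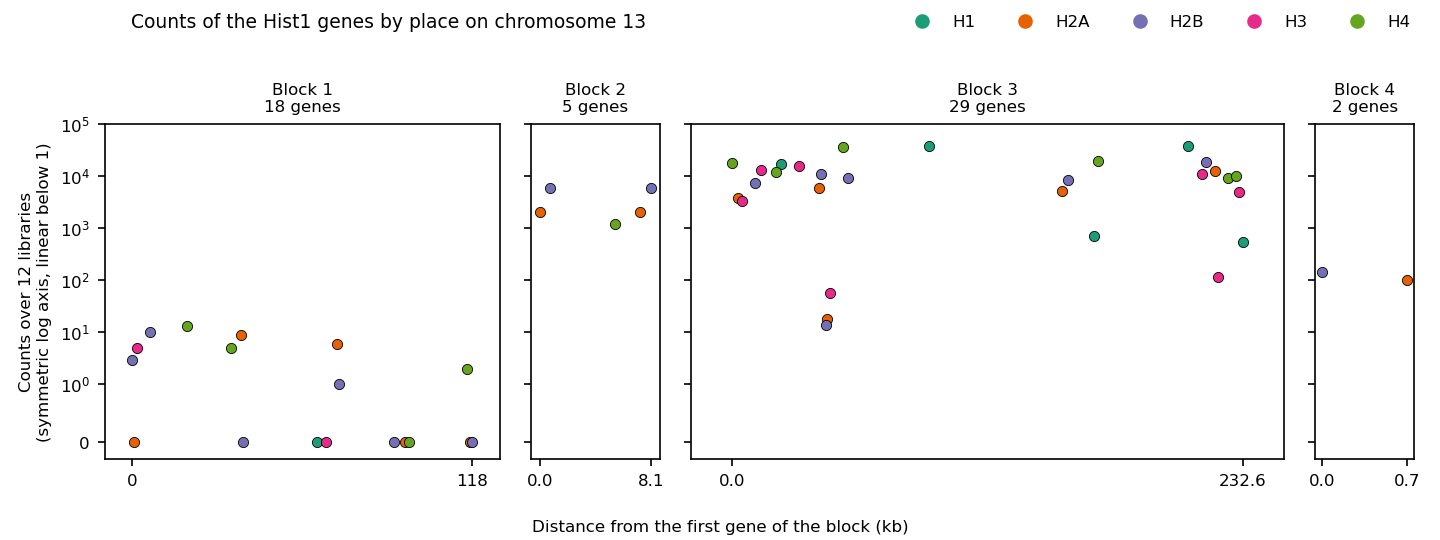
Counts over the 12 libraries (symmetric log axis, linear below 1) of the 54 Hist1 genes against their distance from the first gene of their block (kb), in 4 blocks along chromosome 13, coloured by histone type. The 18 genes of block 1 have at most 13 counts each, whereas every gene of block 2 has at least 1230.

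Promoter windows were found for 62 clustered and 12 variant genes. CCAAT occurred in 53 clustered and 8 variant windows and in 37.9% of 27025 promoters, and TATAAA in 35 clustered windows, 1 variant window and 14.2% of promoters. The octamer ATTTGCAT, known in H2B promoters, was found in 13 clustered windows, 7 of them of H2A genes and 6 of H2B genes, in 1 variant window and in 1.75% of promoters. H4 windows held CCAAT in 3 of 12, whereas all 18 H2A, 16 H2B, 10 H3 and 6 H1 windows held it. The E2F letters TTTGGCGC or TTTCGCGC lay in 9 clustered windows and 0.833% of promoters, and the interferon-response letters GAAANNGAAA in 1 clustered window, none of the variant windows and 3.49% of promoters. All motifs were searched on both strands, none contains another, and a match describes letters only. The windows of Hist1h2aa and Hist1h2ba overlap by 220 bases, so their matches are largely the same.

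Genes that transcribe and process clustered histone mRNAs were counted from a list of 26 names, of which 24 were tested. Symp and Ars2, a synonym of the listed Srrt, had no tested row under these symbols. In Adar KO cells with IFNb 15 of the 24 fell and 5 rose (median log2 fold change -0.26), where 35.7% of all genes fell and 36.6% rose. In control cells 3 fell and 10 rose (0.13), where 26.5% of all genes fell and 26.5% rose. Slbp, which encodes the protein that binds the stem-loop, had 12.1, 12.6 and 12.2 CPM in Adar KO cells with IFNb and 32.6, 27.3 and 25.1 CPM in Adar KO cells with vehicle, against 36.1, 31.6 and 29.0 CPM in control cells with IFNb and 26.2, 26.2 and 24.4 CPM in control cells with vehicle. It fell in Adar KO cells (-1.20 ± 0.13, adjusted p = 4.81e-16) and rose in control cells (0.33 ± 0.10, adjusted p = 0.00535), and the interaction was -1.52 ± 0.16 (adjusted p = 4.78e-15). The largest falls of the list in Adar KO cells were those of E2f1 (-2.94 ± 0.15), Zfp473 (-2.10 ± 0.51), Ccne1 (-2.10 ± 0.16) and Cdk2 (-1.59 ± 0.04). In control cells E2f1 (0.35 ± 0.08) and Ccne1 (1.57 ± 0.09) rose, Cdk2 fell (-0.35 ± 0.04) and Zfp473 was not called (0.01 ± 0.31). The interaction was -3.28 ± 0.17 for E2f1 and -3.67 ± 0.18 for Ccne1. Lsm11, of the U7 particle that cuts the pre-mRNA, fell in Adar KO cells (-1.46 ± 0.12) and was not called in control cells (-0.06 ± 0.10). Casp8ap2, a component of the bodies where histone genes are transcribed (-0.74 ± 0.06 in Adar KO cells, 0.19 ± 0.06 in control cells), and Eri1, the exonuclease that trims and degrades these mRNAs (-0.34 ± 0.06 and 0.14 ± 0.06), fell in Adar KO cells and rose in control cells. Npat, the coactivator of clustered histone genes, was not called in Adar KO cells (-0.06 ± 0.07) and rose in control cells (0.28 ± 0.06). The 5 that rose in Adar KO cells were Hinfp (0.87 ± 0.13), Tut1 (0.71 ± 0.10), Srrt (0.54 ± 0.07), Zcchc11 (0.49 ± 0.05) and Cpsf2 (0.39 ± 0.05). In control cells Tut1 (0.83 ± 0.11) and Srrt (0.56 ± 0.07) also rose, and Hinfp, Zcchc11 and Cpsf2 were not called.

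Of 29 chaperones and deposition factors, 26 were tested. Srcap, Supt16 and Mis18a had no tested row under these symbols. In Adar KO cells 16 fell and 8 rose with IFNb (median -0.38), and in control cells 7 fell and 8 rose (median 0.00), where 35.7% of all genes fell and 36.6% rose in Adar KO cells, and 26.5% fell and 26.5% rose in control cells. Of the factors known to carry or place newly made H3 and H4, several fell. Chaf1a, of the CAF-1 complex, had 18.9, 17.1 and 16.9 CPM in Adar KO cells with IFNb against 135, 139 and 127 CPM in Adar KO cells with vehicle (-2.93 ± 0.09, adjusted p = 7.07e-66), and Chaf1b (-3.44 ± 0.19), Asf1b (-2.91 ± 0.14), Nasp (-2.02 ± 0.10) Hat1 (-1.66 ± 0.09) and, by less, the CAF-1 subunit Rbbp4 (-0.41 ± 0.05) fell as well, whereas the importer Ipo4 rose (0.89 ± 0.07). In control cells Chaf1a (0.33 ± 0.05) and Chaf1b (0.44 ± 0.08) rose, and Asf1b, Nasp and Hat1 were not called. Factors of H3.3 deposition differed from one another. Ubn1 (0.35 ± 0.05), Ubn2 (0.36 ± 0.07) and Cabin1 (0.22 ± 0.06), listed beside Hira, rose in Adar KO cells, and Dek fell (-0.79 ± 0.06). In control cells Ubn2 (0.28 ± 0.07), Cabin1 (0.19 ± 0.07) and Dek (0.22 ± 0.06) rose, and Ubn1 was not called (-0.09 ± 0.05). Hira changed little in Adar KO cells (-0.22 ± 0.06, adjusted p = 0.000695) and Atrx was not called (-0.05 ± 0.04), whereas Daxx had 226, 227 and 219 CPM in Adar KO cells with IFNb and 29.3, 29.3 and 26.2 CPM in Adar KO cells with vehicle, against 91.0, 95.0 and 92.7 CPM in control cells with IFNb and 30.9, 29.5 and 27.1 CPM in control cells with vehicle. Daxx rose in both genotypes (2.98 ± 0.07 in Adar KO cells, 1.67 ± 0.08 in control cells), with an interaction of 1.31 ± 0.11 (adjusted p = 1.93e-21). Asf1a, which serves both routes, was not called in Adar KO cells (0.14 ± 0.08) and fell in control cells (-0.21 ± 0.08).

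Anp32e, which removes H2A.Z from chromatin, fell with IFNb in both genotypes (-1.92 ± 0.05 in Adar KO cells, -0.77 ± 0.05 in control cells), as H2afz and H2afv did. Other genes of H2A.Z handling in the list rose in Adar KO cells, namely Ino80 (0.79 ± 0.07), Vps72 (0.43 ± 0.09) and Ep400 (0.34 ± 0.05); in control cells Ino80 fell (-0.26 ± 0.08), Vps72 was not called (0.03 ± 0.10) and Ep400 rose (0.22 ± 0.05). Cenpa, the H3 variant of centromeres, had 7.76, 5.71 and 6.80 CPM in Adar KO cells with IFNb and 71.6, 69.7 and 66.7 CPM in Adar KO cells with vehicle, against 38.1, 40.0 and 37.4 CPM in control cells with IFNb and 75.4, 70.6 and 72.1 CPM in control cells with vehicle. It fell in Adar KO cells (-3.37 ± 0.14) and in control cells (-0.91 ± 0.08), with an interaction of -2.46 ± 0.16 (adjusted p = 1.88e-31). Hjurp, its chaperone, fell in Adar KO cells (-1.87 ± 0.27) and was not called in control cells (-0.14 ± 0.22).

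**Figure D5:**
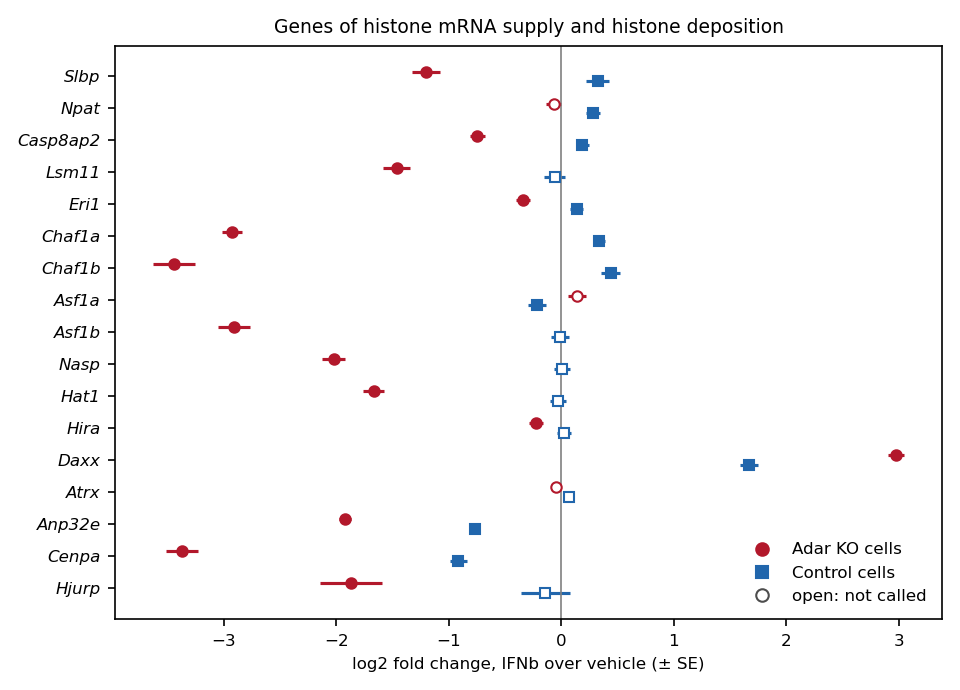
Log2 fold changes of IFNb over vehicle (± SE) for 17 genes of histone mRNA supply and histone deposition in Adar KO cells (red circles) and control cells (blue squares); open symbols were not called. Chaf1a, Chaf1b, Asf1b and Cenpa lie below -2.5 in Adar KO cells, and Daxx lies above 1.5 in both genotypes.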

How the data were processed

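RNA-seq counts of 12 libraries of B16 cells in 4 groups of 3 were used. The deposited table holds raw counts per gene symbol, not normalised by the authors. Per the submitters' processing notes, the build was mm10 and DESeq2, HTSeq (0.6.1p1), Bowtie2 (2.2.4), Trimmomatic (0.33) and bcl2fastq (2.19.1) were used. Not given in the sources used here are the order and settings of these tools, the strand used in counting, the treatment of reads that match several genes, and the annotation. Per the labels' protocols, reads were paired, directional and 37 bases long.

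From these counts, 11561 genes passed filterByExpr (by group), TMM scaling was applied, and edgeR 4.0.16 fitted all 12 libraries with 1 term per group (quasi-likelihood, robust). A call means an adjusted p (Benjamini-Hochberg, over all genes tested) under 0.05, in each of 5 comparisons. Errors of log2 fold changes are Wald standard errors, not below counting error, and those of CPM are SDs over 3 libraries. The common biological coefficient of variation was 0.0397, and chi-square per degree of freedom between replicates was 1.48 to 3.36, so no libraries agreed within sampling noise. The fit was tried on simulated data in which few genes changed, equally up and down. It therefore does not speak for changes as broad as those seen here.

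All 82 symbols were matched in GENCODE M21 (GRCm38, the assembly that mm10 names), which gave positions, 37-base stretches shared between genes on either strand, and stem-loops. Promoter windows came from RefSeq (GRCm38.p6), where 74 symbols were matched through synonyms.

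The members and gene lists were chosen with earlier results of these data known. Values are given for all tested variants, the 10 clustered genes with the highest mean CPM, the 3 largest called rises and falls per comparison, up to 5 clustered genes called against the majority of their comparison, and 17 genes of histone supply. Also given outside these rules, with values known, were Hist1h1t, Hist1h3d, Hist3h2ba, Hist4h4, Rbbp4, Ipo4, Ino80, Vps72, Ep400, Hinfp, Tut1, Srrt, Zcchc11 and Cpsf2. The same holds for Ubn1, Ubn2, Cabin1, Dek, E2f1, Ccne1, Zfp473 and Cdk2. Alternatives were 3 other scalings, no filter, DESeq2 1.42.0, a replicate block, the groups of a comparison alone and leaving out each library. The interferon-gamma arm named in the design text was not analysed here.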

Additional observations from a re-analysis of the deposited data

Results flagged for a closer look

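For 30 of the 32 histone genes named by the stated rules, the response to IFNb differed between Adar KO and control cells. The test was that of the difference itself (interaction in edgeR, Benjamini-Hochberg adjusted p under 0.05). It called 59.3% of all genes tested. Values are the log2 response of Adar KO cells minus that of control cells, and no explanation was tested. Several of the 32 were chosen for large changes, some in this same test, so the count is a description.

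The response was higher in Adar KO cells for 6 genes: Hist1h2ba at 5.52, a fitted value on 2 or 3 counts in each of the other 3 groups, in a gene that passed the filter only through Adar KO cells with IFNb, Hist1h1a at 1.46, Hist1h4i at 1.10, H1f0 at 0.80, H2afj at 0.58 and H3f3b at 0.55.

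Among variants it was lower in Adar KO cells for H2afx at -3.24, H2afz at -1.24, H2afv at -1.11, H2afy at -0.83 and H3f3a at -0.66.

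Among clustered H1 genes it was lower for Hist1h1d at -2.11, Hist1h1e at -1.37 and Hist1h1c at -0.26. Among H2A genes it was lower for Hist1h2af at -5.42, Hist1h2ah at -4.12, Hist3h2a at -1.77 and Hist2h2ac at -1.75. Among H2B genes it was lower for Hist1h2bk at -3.84, Hist1h2bh at -3.34, Hist1h2bb at -2.60 and Hist2h2bb at -1.78.

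Among H3 genes it was lower for Hist1h3g at -4.22 and Hist1h3a at -2.15. Among H4 genes it was lower for Hist1h4a at -1.79, Hist1h4h at -1.25, Hist1h4c at -0.90, Hist2h4 at -0.66, Hist1h4d at -0.40 and Hist1h4b at -0.28.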

How the results depend on the processing

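No result changed direction while called. Of 2231 recomputed values of the 32 named histone genes, 2195 kept their side of the threshold, 20 lost it and 16 gained it. With library size alone, 1 variant rose with IFNb in Adar KO cells (2 with TMM), 5 clustered genes and 0 variants rose in control cells (8 and 1 with TMM), the clustered sum was 7881 CPM in control cells with vehicle, and the variant sum was 1233 CPM in Adar KO cells with IFNb and 1862 CPM in control cells with vehicle. That setting also split all calls of control cells with IFNb into 2469 higher and 3796 lower (3067 and 3066 with TMM), and moved the median of all genes to -0.08. DESeq2 called 1 variant higher with IFNb in Adar KO cells, and 324 genes of the table in the vehicle comparison (753 by edgeR). Without a filter on low counts, 2 variants rose in control cells, and 7 clustered genes were higher in Adar KO than in control cells with IFNb, against 4 of those that passed it. Leaving out 1 library gave 1 to 2 variants higher with IFNb in Adar KO cells, and in the vehicle comparison 1 to 12 clustered genes and 0 to 1 variants higher. Causes were not tested.

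Same-numbered libraries did not pair, with correlations of their deviations from -0.10 to 0.06. The replicate block gave the same member counts in every comparison, for example 37 clustered genes lower and 4 higher with IFNb in Adar KO cells, and 8338 genes called there in the whole table (8364 without it). Hist1h3b and Hist2h3c1 had few counts and wide errors.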
